A study of Mus musculus with 12 samples.

Results

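Adipoq, Fabp4, Lpl, Pparg, Cd36, Cidec, Scd1, Fasn, Cebpa and Angptl4 are 10 genes of adipocytes and of lipid uptake, synthesis and storage. They were followed in mouse femoral head cartilage by taking every probe whose array symbol equals a member's symbol, which gave 17 probes for 10 of the 34509 symbols on the array. The explants came from 21-day-old TS-4/5∆cat mice, in which ADAMTS-4 and ADAMTS-5 both lack their catalytic domain, and were kept in culture for 3 days, either untreated, exposed to IL-1α at 10 ng/mL, or exposed to retinoic acid at 10 µM. All 3 treatment groups carry both deletions, so no value here compares the deletions with the wild type. Each treatment had 4 arrays, 2 in batch 1 from the line named Donut and 2 in batch 2 from the line named Gertrude. Line and batch divide the arrays in the same way and cannot be told apart. The labels give 4 hips per well and speak of triplicate treatments, the series design speaks of duplicates in each line, and the methods describe separate unpooled mice, fewer per treatment than the arrays. None of these ties an array to an animal, and the conflict was not settled, so the p-values measure the spread between these arrays, which may be in part technical.

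White adipocytes take up fatty acids that lipoprotein lipase (Lpl) releases from circulating lipoproteins, make more by fatty acid synthase (Fasn) and stearoyl-CoA desaturase (Scd1), and store them as triglyceride in lipid droplets. The nuclear receptor PPARγ (Pparg) and the bZIP factor C/EBPα (Cebpa) switch this programme on during differentiation and maintain each other's expression in fat cells. Several of the same genes are used outside adipose tissue, by macrophages, endothelium, muscle and chondrocytes, so the presence of a single one does not mark a fat cell. Retinoic acid acts through RAR and RXR, and RXR is also the partner of PPARγ, while IL-1α acts through NF-κB and is known to lower adipocyte gene expression.

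Promoter sequences from RefSeq (GRCm38.p6, 250 bases before to 50 bases after a start site) matched 6 of the 10 members with 9 start sites. Fabp4, Lpl, Scd1 and Angptl4 had no entry. The 3 Pparg starts are shown because Pparg had the largest response to retinoic acid among the members and because its transcripts begin at alternative promoters, while Cebpa, Fasn and Adipoq are shown as a factor, an enzyme and a secreted product that moved differently. Capitals mark, on either strand, the nuclear receptor hexamer AGGTCA, the CCAAT box, the C/EBP-type motif TTGCNNAA and the TATA box TATAAA.
Pparg, chr6:115360894-115361193, plus strand: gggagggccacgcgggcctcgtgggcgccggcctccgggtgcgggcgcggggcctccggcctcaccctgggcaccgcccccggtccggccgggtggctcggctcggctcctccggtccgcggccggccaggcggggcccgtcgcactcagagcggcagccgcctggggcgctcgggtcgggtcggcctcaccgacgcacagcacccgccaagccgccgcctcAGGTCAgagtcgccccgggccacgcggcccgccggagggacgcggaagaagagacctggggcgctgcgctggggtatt
Pparg, chr6:115362099-115362398, plus strand: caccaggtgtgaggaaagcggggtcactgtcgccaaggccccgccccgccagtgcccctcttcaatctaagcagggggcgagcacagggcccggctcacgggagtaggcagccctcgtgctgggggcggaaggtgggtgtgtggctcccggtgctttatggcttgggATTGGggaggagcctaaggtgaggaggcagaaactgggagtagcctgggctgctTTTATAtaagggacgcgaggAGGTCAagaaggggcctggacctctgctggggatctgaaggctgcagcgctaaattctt
Pparg, chr6:115421816-115422115, plus strand: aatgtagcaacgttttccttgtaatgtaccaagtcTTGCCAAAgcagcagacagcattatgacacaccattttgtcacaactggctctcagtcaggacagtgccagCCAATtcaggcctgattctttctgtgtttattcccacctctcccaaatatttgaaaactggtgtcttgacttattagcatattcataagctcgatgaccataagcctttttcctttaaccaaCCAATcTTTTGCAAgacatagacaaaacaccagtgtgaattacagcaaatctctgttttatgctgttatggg
Cebpa, chr7:35119043-35119342, plus strand: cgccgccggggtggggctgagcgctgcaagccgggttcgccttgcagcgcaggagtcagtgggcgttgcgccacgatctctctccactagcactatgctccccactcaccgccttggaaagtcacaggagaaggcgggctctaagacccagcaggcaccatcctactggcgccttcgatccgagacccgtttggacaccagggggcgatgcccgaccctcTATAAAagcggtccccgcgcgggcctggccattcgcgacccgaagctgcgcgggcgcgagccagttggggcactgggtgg
Fasn, chr11:120824498-120824797, minus strand: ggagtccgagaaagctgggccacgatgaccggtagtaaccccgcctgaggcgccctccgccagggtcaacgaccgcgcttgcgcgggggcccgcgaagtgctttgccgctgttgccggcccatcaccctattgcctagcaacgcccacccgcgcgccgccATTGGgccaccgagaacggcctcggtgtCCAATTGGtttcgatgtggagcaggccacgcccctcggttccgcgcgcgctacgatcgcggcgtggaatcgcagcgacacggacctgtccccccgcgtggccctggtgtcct
Adipoq, chr16:23146286-23146585, plus strand: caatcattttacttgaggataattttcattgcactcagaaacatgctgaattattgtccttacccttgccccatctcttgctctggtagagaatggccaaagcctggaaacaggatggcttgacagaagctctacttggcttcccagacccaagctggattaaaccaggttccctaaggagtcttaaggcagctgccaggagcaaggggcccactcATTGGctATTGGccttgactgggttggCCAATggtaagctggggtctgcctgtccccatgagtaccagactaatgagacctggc

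The 3 Pparg windows differed in composition. The start at chr6:115360894-115361193 was 80.3% G and C, the next 62.7% and the most downstream 40.3%, against a median of 52.7% over 32851 promoters. AGGTCA lay at position -28 of the most upstream window and at position -9 of the next, counted to the leftmost base of the match with -1 as the base before the start, and 16.3% of all promoters held it. The most downstream Pparg window held no AGGTCA but 2 matches of TTGCNNAA, at positions -215 and -16, a motif found in 10.8% of all promoters. CCAAT, found in 37.4% of all promoters, had 3 matches in the Fasn window, of which those at positions -62 and -59 overlap, and 3 in the Adipoq window. The 2 more downstream Pparg windows held CCAAT as well, at position -83 of the one and at -144 and -22 of the other. TATAAA, found in 13.6% of all promoters, lay at position -30 of Cebpa and, on the minus strand, at position -29 of the Pparg window chr6:115362099-115362398. Direct repeats of AGGTCA, the arrangement bound by RXR heterodimers, with 1 or 5 bases between the copies were found in 0 of the 9 member windows, and in 0.0396% and 0.00913% of all promoters. These matches describe the letters of the windows and are neither sites nor causes. Which Pparg start the measured transcripts used was not analysed here.

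Under the label of cartilage, Col2a1, the main cartilage collagen, had a mean log2 intensity of 13.59 on the untreated arrays, where the highest reading was 14.24. Of 11 chondrocyte markers 9 passed the detection filter, but so did 12 of 12 endothelial and 7 of 8 osteoblast markers. That count therefore does not single out cartilage. Between 13786 and 19485 of the 46632 probes were detected per array, with more in batch 2 than in batch 1, and 18200 probes of 14317 genes passed the filter. Cyp26a1, a retinoic acid target, read between 9.06 and 9.79 on the 4 retinoic acid arrays and at most 5.03 elsewhere, as the labels imply. In RNA from whole explants, fewer cells of a type and less RNA per cell cannot be told apart.

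Levels are normalized log2 intensities, listed for each treatment as replicates 1 and 2 of batch 1 and then replicates 1 and 2 of batch 2. A gene was called when its brightest probe passed an adjusted p of 0.05 over all 18200 probes. Of the 10 members, 7 had a probe that passed the filter (detection p under 0.05 on at least 4 of 12 arrays), with 9 probes in all. Fabp4, Cd36 and Cidec did not pass and were not tested, so the counts below cover only the members that were detected.

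Retinoic acid against untreated explants gave 4 of 7 tested members higher (Pparg, Fasn, Angptl4, Cebpa) and 2 lower (Adipoq, Lpl), where 18.6% and 18.1% of all genes tested were called higher and lower. IL-1α against untreated explants gave 2 higher (Cebpa, Angptl4) and 5 lower (Lpl, Adipoq, Pparg, Scd1, Fasn), against 15.1% and 15.0% of all genes. Retinoic acid against IL-1α gave 6 higher and 1 lower (Cebpa), against 16.1% and 16.4%. The median log2 difference of the 7 members was 0.44 for retinoic acid and -0.88 for IL-1α, where that of all genes was 0.01 in both. Both comparisons use the same 4 untreated arrays, and so their values are not independent. Scaling the arrays to 1 median in place of quantile normalization moved the median of all genes to 0.13 for retinoic acid against untreated, and the share of calls that were higher from 50.7% to 65.1% there and from 49.5% to 65.8% for retinoic acid against IL-1α. No member changed direction in a treatment comparison under that scaling.

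**Figure D1:**
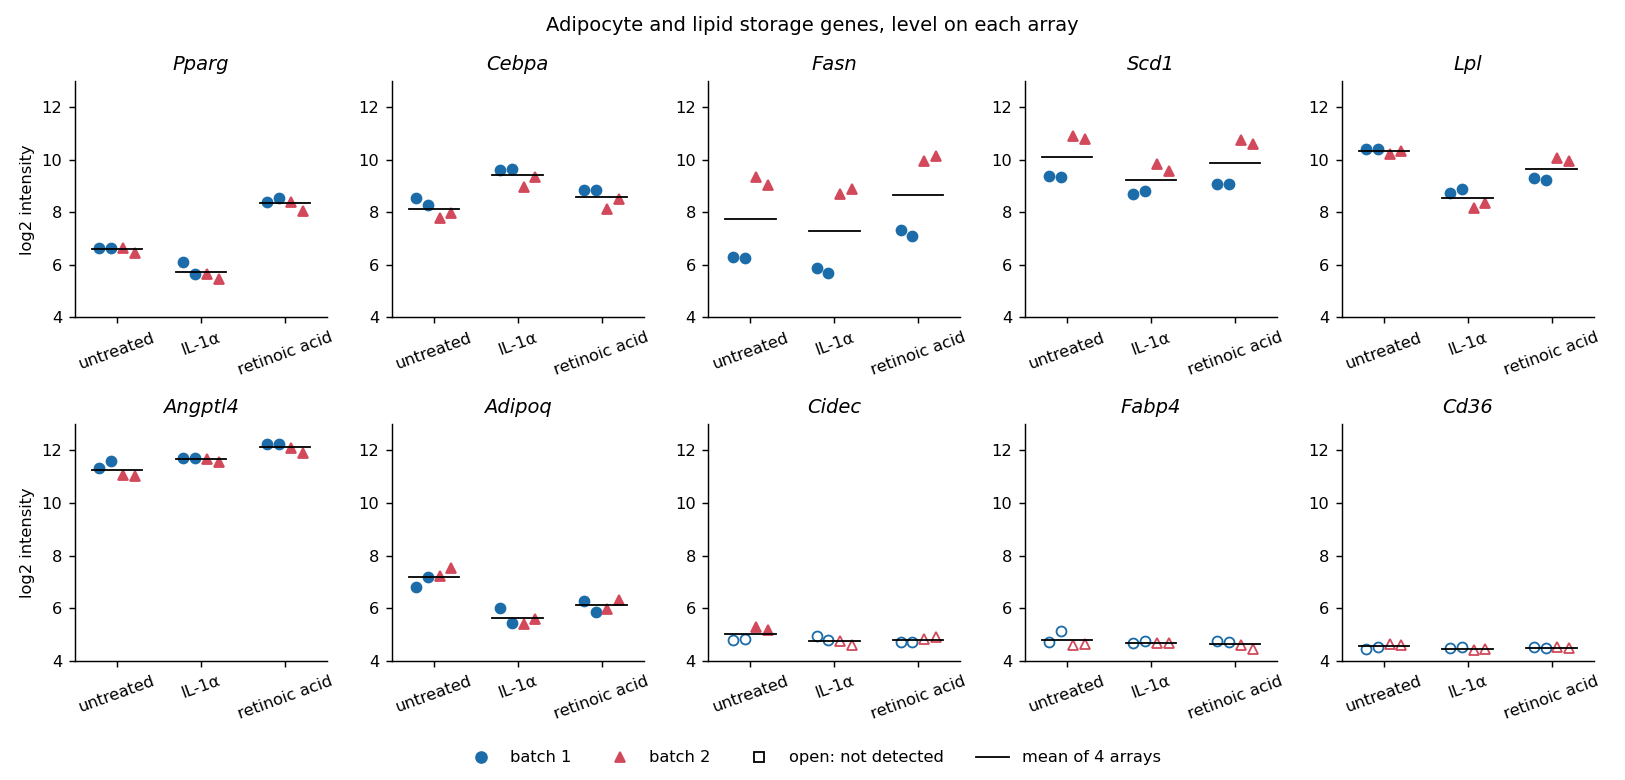
Log2 intensity (y axis) of each member's brightest probe on each of the 12 arrays, by treatment (x axis), with batch 1 as circles, batch 2 as triangles, open symbols where the probe was not detected and a line at the mean of 4 arrays. Pparg is highest on the 4 retinoic acid arrays (8.04 to 8.54), Fasn and Scd1 separate by batch, and Fabp4 and Cd36 are open on all 12 arrays.

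Pparg, the master regulator of adipogenesis, read 6.65, 6.66, 6.65 and 6.44 untreated, 6.10, 5.65, 5.65 and 5.46 with IL-1α and 8.39, 8.54, 8.41 and 8.04 with retinoic acid. The 3 treatments did not overlap, with IL-1α lowest and retinoic acid highest in both batches. Retinoic acid raised Pparg by 1.75 on the log2 scale, or 3.36-fold (SE 0.12, limma adjusted p = 2.31e-07), and IL-1α lowered it by a log2 difference of -0.88 (SE 0.12, adjusted p = 2e-04). The IL-1α readings lay not far above the lowest detected signals of those arrays, 5.02 to 5.48, so the fall with IL-1α may be understated. The 2 treatments stood 2.63 apart, or 6.19-fold (adjusted p = 6.86e-09). Each pair of treatments gave an exact two-sided permutation p of 0.0286. That is the smallest that 4 arrays against 4 can give when, as here, arrays are exchanged without regard to batch. The retinoic acid difference was 1.81 in batch 1 and 1.68 in batch 2. A second Pparg probe was detected only on the 2 retinoic acid arrays of batch 2, at 5.48 and 5.40, and another on none.

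Cebpa, which acts with PPARγ in terminal adipocyte differentiation, moved in another order. Untreated arrays read 8.56, 8.26, 7.78 and 7.96, those with IL-1α 9.63, 9.66, 8.97 and 9.36, and those with retinoic acid 8.87, 8.84, 8.14 and 8.50. The IL-1α arrays lay above all others, and the retinoic acid arrays overlapped the untreated ones overall but lay above them within each batch. IL-1α raised Cebpa by 1.27, or 2.40-fold (SE 0.11, adjusted p = 3.81e-06), and retinoic acid by 0.44, or 1.36-fold (SE 0.11, adjusted p = 0.00688). In batch 2 alone the retinoic acid difference of 0.45 did not pass (adjusted p = 0.119). The second Cebpa probe gave 1.04 for IL-1α (adjusted p = 7.03e-04) but 0.19 for retinoic acid (adjusted p = 0.434), and it was not detected on the untreated and retinoic acid arrays of batch 1. Pparg and Cebpa thus responded in opposite directions to IL-1α, and both were higher with retinoic acid by their brightest probe.

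Fasn, which builds palmitate from malonyl-CoA, read 6.28, 6.24, 9.35 and 9.04 untreated, 5.86, 5.69, 8.71 and 8.89 with IL-1α and 7.32, 7.11, 9.97 and 10.16 with retinoic acid. The batches lay far apart, and within each of them both retinoic acid arrays were above and both IL-1α arrays below the untreated pair. Retinoic acid raised Fasn by 0.91, or 1.88-fold (SE 0.12, adjusted p = 6.13e-05), with 0.95 in batch 1 and 0.87 in batch 2. The IL-1α difference was -0.44 (SE 0.12, adjusted p = 0.0154), and the treatments differed by 1.35, or 2.55-fold (adjusted p = 1.9e-06). In batch 1 the IL-1α readings lay not far above the lowest detected signals of those arrays, 5.48 and 5.45. The IL-1α call was lost without untreated batch 1 replicate 2 (-0.41, adjusted p = 0.0568), without IL-1α batch 1 replicate 1 (-0.42, adjusted p = 0.0501), without IL-1α batch 1 replicate 2 (-0.41, adjusted p = 0.06), and with median scaling (-0.39, adjusted p = 0.109).

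Scd1 introduces the double bond of oleate, the main fatty acid of stored triglyceride. It read 9.39, 9.34, 10.92 and 10.80 untreated, 8.71, 8.81, 9.86 and 9.57 with IL-1α and 9.08, 9.07, 10.75 and 10.59 with retinoic acid. IL-1α lowered Scd1 by a log2 difference of -0.88 (SE 0.14, adjusted p = 5.78e-04), with both IL-1α arrays of each batch below the untreated pair. For retinoic acid the difference of -0.24 did not pass (95% interval -0.55 to 0.07, adjusted p = 0.212), and the value with retinoic acid was 0.63 above that with IL-1α (adjusted p = 0.00392), 0.32 in batch 1 and 0.95 in batch 2.

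Lpl, the enzyme that hydrolyses lipoprotein triglyceride at the capillary wall, read 10.41, 10.43, 10.23 and 10.35 untreated, 8.75, 8.87, 8.15 and 8.37 with IL-1α and 9.31, 9.23, 10.08 and 9.97 with retinoic acid. The groups did not overlap. IL-1α lowered Lpl by a log2 difference of -1.82, or 3.52-fold (SE 0.21, adjusted p = 5.21e-05), the largest fall with IL-1α among the 7 members. With retinoic acid the difference was -0.71 (SE 0.21, adjusted p = 0.0207), and it was -1.15 in batch 1 and -0.27 in batch 2. The 2 batches differed in this response by 0.88 (SE 0.20, adjusted p = 0.0276), where 2.70% of all genes had such a difference, and in retinoic acid against IL-1α by 1.30 (SE 0.20, adjusted p = 0.00114), where 8.91% did. For IL-1α against untreated, where 4.57% of all genes were called, the batch difference of Lpl was -0.42 (adjusted p = 0.249), and the 7 members had adjusted p from 0.148 (Scd1) to 0.917 (Cebpa). The call for retinoic acid against untreated was lost on leaving out either untreated array of batch 1 (-0.67 in both cases, adjusted p = 0.0655 and 0.0708) or retinoic acid batch 1 replicate 1 (-0.55, adjusted p = 0.0895) or replicate 2 (-0.50, adjusted p = 0.0919). It was also lost with median scaling (-0.53, adjusted p = 0.169), with no filter (-0.71, adjusted p = 0.122) and in batch 2 alone (-0.27, adjusted p = 0.276). The other 2 Lpl probes were not detected on any array.

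Angptl4, a secreted inhibitor of lipoprotein lipase and a PPAR target, read 11.33, 11.59, 11.08 and 11.02 untreated, 11.71, 11.71, 11.69 and 11.55 with IL-1α and 12.25, 12.26, 12.10 and 11.91 with retinoic acid. The retinoic acid arrays lay above all others, and the lowest IL-1α array lay below the highest untreated one. Retinoic acid raised Angptl4 by 0.88, or 1.84-fold (SE 0.12, adjusted p = 6.24e-05), and IL-1α by 0.41, or 1.33-fold (SE 0.12, adjusted p = 0.0176). The IL-1α call was lost without untreated batch 1 replicate 1 (0.41, adjusted p = 0.0509), without IL-1α batch 2 replicate 1 (0.37, adjusted p = 0.0608) or without IL-1α batch 2 replicate 2 (0.37, adjusted p = 0.0562). A second probe gave 1.13 for retinoic acid (adjusted p = 2.13e-05) and 0.64 for IL-1α (adjusted p = 0.00302). The last Angptl4 probe was detected only on the retinoic acid arrays of batch 1. Enzyme and inhibitor therefore moved apart under both treatments, with Lpl lower and Angptl4 higher than in untreated explants. For retinoic acid the fall of Lpl rests mostly on batch 1, at -1.15 against -0.27 in batch 2. For IL-1α the rise of Angptl4 was 0.25 in batch 1, where alone it did not pass (adjusted p = 0.152), and 0.57 in batch 2. By the second Angptl4 probe it was 0.62 and 0.66.

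Cd36, the scavenger receptor that takes up long-chain fatty acids, was not well above background on any array, at 4.41 to 4.61. The lowest detected signal of an array lay between 4.86 and 5.48, so a low level of Cd36 RNA could not have been measured.

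Adipoq encodes adiponectin, a hormone of adipocytes. It read 6.81, 7.18, 7.21 and 7.52 untreated, 6.01, 5.45, 5.39 and 5.59 with IL-1α and 6.27, 5.85, 5.97 and 6.31 with retinoic acid. Both treated groups lay below every untreated array. Adipoq fell by 1.57 with IL-1α, or 2.98-fold (SE 0.17, adjusted p = 1.96e-05), and it fell by 1.08 with retinoic acid, or 2.11-fold (SE 0.17, adjusted p = 2.17e-04). The IL-1α readings lay not far above the lowest detected signals of those arrays, 5.02 to 5.48. IL-1α batch 1 replicate 2 was at that limit, with a detection p of 0.049, so the fall with IL-1α may be understated. The treated groups overlapped each other, and their difference of 0.49 passed narrowly (adjusted p = 0.0377, exact permutation p = 0.0857). That call was lost without IL-1α batch 1 replicate 2, IL-1α batch 2 replicate 1 or 2, retinoic acid batch 1 replicate 1 or retinoic acid batch 2 replicate 1 or 2, with differences of 0.39 to 0.49 and adjusted p between 0.0767 and 0.131. It was lost in 13 of 24 alternatives in all, among them median scaling (0.64, adjusted p = 0.0816), no background correction (0.32, adjusted p = 0.0721), normalization within each batch (0.49, adjusted p = 0.059), an offset of 50 (0.31, adjusted p = 0.0766) and no filter (0.49, adjusted p = 0.139).

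Fabp4, the fatty acid carrier of mature adipocytes, was detected on 0 of 12 arrays, at 4.46 to 5.12. Cidec, which drives lipid droplet fusion, was detected on 2 arrays, both untreated and of batch 2, at 5.26 and 5.16, and its other readings lay between 4.59 and 4.94. With Cd36, these are 3 of 10 members that mature fat cells express strongly and that were at or near background here.

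**Figure D2:**
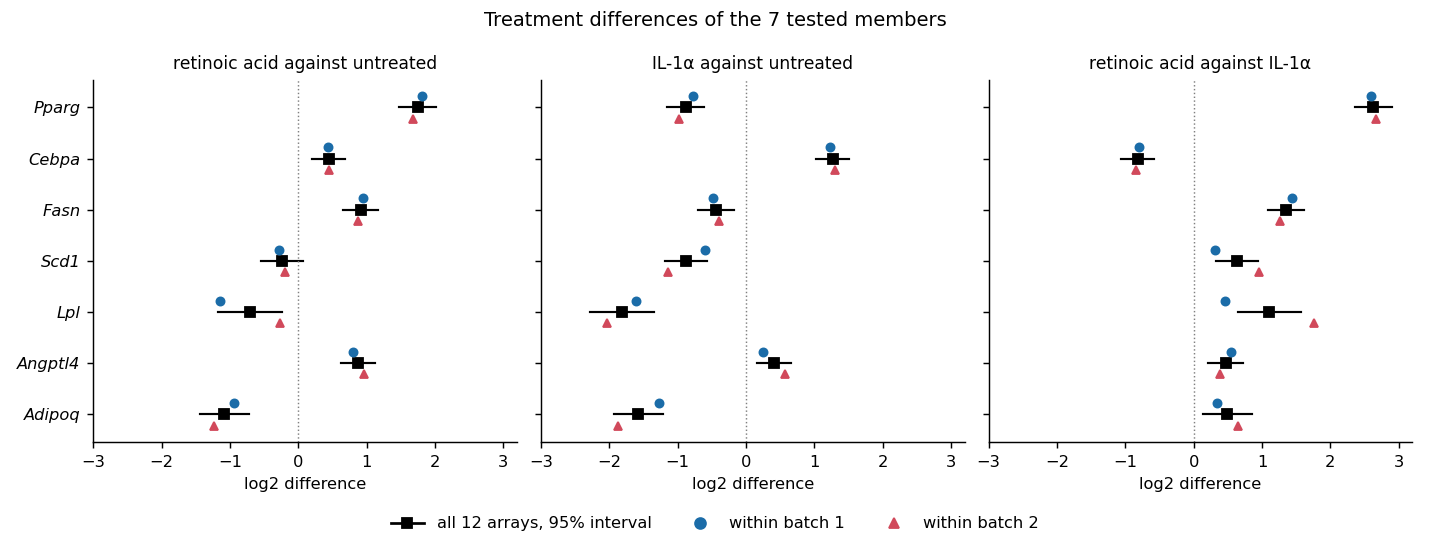
Log2 difference (x axis) of the 7 tested members in the 3 treatment comparisons, with the estimate and 95% interval from all 12 arrays as black squares and lines and the differences within batch 1 and batch 2 as circles and triangles. Pparg is on the right for retinoic acid (1.75) and on the left for IL-1α (-0.88), Cebpa is highest with IL-1α (1.27), and the batches part most for Lpl in the 2 comparisons with retinoic acid.

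Between the batches, and so between the lines, Fasn and Scd1 differed most among the members. Fasn was 2.94 higher in batch 2, or 7.66-fold (SE 0.10, adjusted p = 6.89e-13), with 8.71 as the lowest array of batch 2 and 7.32 as the highest of batch 1. Scd1 was 1.35 higher, or 2.54-fold (SE 0.11, adjusted p = 2.68e-08), also with no overlap. Cebpa was lower by a log2 difference of -0.52 (adjusted p = 2.82e-04) and Angptl4 of -0.25 (adjusted p = 0.0231), and Pparg, Lpl and Adipoq were not called. In this comparison 29.7% of all genes were called higher and 46.3% lower, so 2 of 7 members in each direction is no more than the background. The median of all genes was -0.20 with quantile normalization over all arrays, 0.46 with median scaling and 0.68 with normalization within each batch, and the share of calls that were higher was 39.1%, 86.9% and 93.9%. Under median scaling Cebpa (0.27, adjusted p = 0.0727) and Angptl4 (0.26, adjusted p = 0.1) changed sign and did not pass, while Pparg (0.61, adjusted p = 0.00189), Lpl (0.75, adjusted p = 0.00391) and Adipoq (0.85, adjusted p = 6.97e-04) were called higher in batch 2. With normalization within each batch all 7 members were called higher, of which Cebpa (0.52) and Angptl4 (0.50) lay below the median of all genes. Fasn and Scd1 were higher in batch 2, and above that median, under each of the 3 scalings. The 2 Angptl4 probes disagreed as well, the second being 0.34 higher in batch 2 (adjusted p = 0.0092). Without untreated batch 1 replicate 2 the Angptl4 difference was -0.20 (adjusted p = 0.0666), and without retinoic acid batch 2 replicate 2 it was -0.23 (adjusted p = 0.054).

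The other genes of the programme were followed in 7 lists, in which a gene can stand more than once. Their counts are to be read against the share of all genes called, given above for each comparison and direction. Of 20 adipocyte markers, 8 were tested and 9 were detected on no array, among them leptin (Lep), resistin (Retn), perilipin 1 (Plin1), the β3-adrenergic receptor (Adrb3) and the insulin-responsive glucose transporter (Slc2a4). Ucp1, Car3 and Cyp2e1 did not pass the filter but were detected on some untreated arrays. Ucp1 was detected on 2 untreated arrays and no treated one, Car3 on 2 untreated and 1 retinoic acid array, and Cyp2e1 on 1 untreated array. With retinoic acid 6 of the 8 fell, and Lipe (0.31, adjusted p = 0.124) and Trarg1 (-0.06, adjusted p = 0.756) did not pass, with a median log2 difference of -1.06 over the 8. Cidea, a lipid droplet protein, fell by 3.05 (adjusted p = 1.21e-08), Cfd, the complement factor adipsin, fell by 2.13 (adjusted p = 8.62e-06) and Rbp4, the retinol carrier, fell by 1.75 (adjusted p = 7.62e-05). With IL-1α 5 fell and 3 rose, with Cidea at -2.13 and Cfd at -1.89. Sncg, a synuclein that is also neuronal, rose by 2.03 with IL-1α (adjusted p = 2.53e-05) and stood at -1.03 with retinoic acid (adjusted p = 0.0025). Lipe, the hormone-sensitive lipase, came at 0.47 and Trarg1 at 0.40 with IL-1α, both dim, and their calls were lost when single arrays were left out, in 6 and 9 of 12 cases.

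Of 18 adipogenic transcription factors 14 were tested. Retinoic acid raised 4 and lowered 1, IL-1α raised 4 and lowered 3, and retinoic acid was above IL-1α in 2 and below it in 7. The 1 of 14 lowered by retinoic acid and the 2 of 14 above IL-1α lie below the 18.1% and 16.1% of all genes, and the 3 of 14 lowered by IL-1α stand beside 15.0%. Cebpb, which precedes Pparg and Cebpa in differentiation, rose by 1.00 with retinoic acid (adjusted p = 9.33e-06) and by 1.39 with IL-1α (adjusted p = 1.21e-06). Stat5a rose by 1.24 with IL-1α (adjusted p = 3.29e-05), and Zfp467 fell by 0.75 (adjusted p = 0.00145). Rxra, the partner of PPARγ, came at -0.57 with retinoic acid (adjusted p = 0.0372), a call that was lost in 5 of 12 cases of leaving out an array, and it was lower than with IL-1α by a log2 difference of -1.10 (adjusted p = 7.35e-04).

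Among 12 inhibitors of adipogenesis 11 were tested, of which 5 rose and 3 fell with retinoic acid and 2 rose and 2 fell with IL-1α, the latter counts being near the 15.1% and 15.0% of all genes. Dlk1, the preadipocyte factor, which immature chondrocytes express too, fell by 3.26 with retinoic acid (adjusted p = 2.02e-08) and it fell by 2.33 with IL-1α (adjusted p = 9.66e-07). Klf2, which represses Pparg, came at -2.32 with retinoic acid (adjusted p = 3.94e-08) and -0.82 with IL-1α (adjusted p = 6.51e-04). Hes1, a Notch target, and Gata2, another repressor of Pparg, rose by 1.33 (adjusted p = 8.29e-06) and 1.05 (adjusted p = 1.82e-04) with retinoic acid. Gata2 was detected on 1 untreated, 2 IL-1α and 4 retinoic acid arrays, with an untreated mean of 4.81. It passed the filter mostly through the retinoic acid arrays, and its rise is measured from near background.

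Fatty acid and triglyceride synthesis had 16 tested genes of 22, with 8 higher and 1 lower after retinoic acid and 3 higher and 6 lower after IL-1α, where 18.6%, 18.1%, 15.1% and 15.0% of all genes were called. The 1 lower after retinoic acid lies below its share of all genes, and the 3 higher after IL-1α lie near theirs. The medians were 0.29 and 0.02. Besides Fasn, retinoic acid raised Lpin1, the phosphatidate phosphatase, by 0.95 (adjusted p = 3.44e-04) and Elovl6, which lengthens palmitate, by 0.91 (adjusted p = 0.0019). Dgat2, a diacylglycerol acyltransferase that completes triglyceride, fell by 1.35 with retinoic acid (adjusted p = 1.28e-06) and rose by 0.60 with IL-1α (adjusted p = 0.00199). The desaturase Fads2 fell by 1.05 with IL-1α (adjusted p = 3.21e-05), as Scd1 did. Retinoic acid against IL-1α gave 9 of 16 genes higher, where 16.1% of all genes were. Dgat2 was lower, at -1.95 (adjusted p = 4.57e-08), and this 1 of 16 lies below the 16.4% of all genes.

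Lipid droplet proteins and lipases had 13 of 19 tested, 4 higher and 4 lower with retinoic acid (18.6% and 18.1% of all genes) and 2 higher and 5 lower with IL-1α (15.1% and 15.0% of all genes), so that the 2 higher are at the background. Hilpda, a droplet protein that inhibits adipose triglyceride lipase and is listed on the array as 2310016C08Rik, rose by 1.88 with retinoic acid (adjusted p = 1.75e-07) and by 0.85 with IL-1α (adjusted p = 3.86e-04). Pnpla2, that lipase itself, rose by 0.79 with retinoic acid (adjusted p = 8.36e-05), and Plin2, the droplet coat protein found in most cell types, by 0.46 (adjusted p = 0.0102). Plin4, a perilipin typical of adipocytes and muscle, fell by 0.67 with retinoic acid (adjusted p = 0.00472) and fell by 1.11 with IL-1α (adjusted p = 1.91e-04).

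In the lipoprotein lipase system and fatty acid uptake 18 of 27 were tested. Retinoic acid raised 6 and lowered 6, IL-1α raised 2 and lowered 7, and retinoic acid was above IL-1α in 9 and below it in 2. The 2 of 18 raised by IL-1α and the 2 of 18 below it with retinoic acid lie under the 15.1% and 16.4% of all genes. Gpihbp1, the endothelial anchor of lipoprotein lipase, rose by 1.03 with retinoic acid (adjusted p = 4.1e-04) and fell by 0.97 with IL-1α (adjusted p = 0.0011). Enzyme and anchor thus both fell with IL-1α. With retinoic acid they parted, though the fall of Lpl was -1.15 in batch 1 and only -0.27 in batch 2, where it did not pass. Fabp3, the heart-type fatty acid binding protein, rose by 1.53 with retinoic acid (adjusted p = 1.69e-06) and fell by 0.49 with IL-1α (adjusted p = 0.0164). Apoe, an apolipoprotein that chondrocytes and macrophages make, fell by 1.98 with IL-1α (adjusted p = 1.67e-07) and fell by 0.84 with retinoic acid (adjusted p = 1.19e-04). Apoc1 was not well above background on any IL-1α array, and the untreated arrays were at least 2.59-fold higher (adjusted p = 3.12e-05) and the retinoic acid arrays at least 3.02-fold higher (adjusted p = 4.6e-06).

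Of 21 PPAR-responsive genes of fatty acid oxidation 12 were tested. Pdk4, a kinase that spares glucose by closing pyruvate dehydrogenase, rose by 3.13 with retinoic acid (adjusted p = 2.61e-08) and was the only one to rise. With IL-1α it stood at 0.48 (adjusted p = 0.0531). The thiolase Acaa2 fell by 0.52 with IL-1α (adjusted p = 0.00452), and 10 and 11 of the 12 genes did not pass in the 2 comparisons with untreated explants. The 1 of 12 higher and 1 of 12 lower with retinoic acid lie below the 18.6% and 18.1% of all genes. With IL-1α 0 of 12 rose and 1 fell, below the 15.1% and 15.0% of all genes. The medians of this list, -0.01 and 0.12, lay near the 0.01 of all genes.

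**Figure D3:**
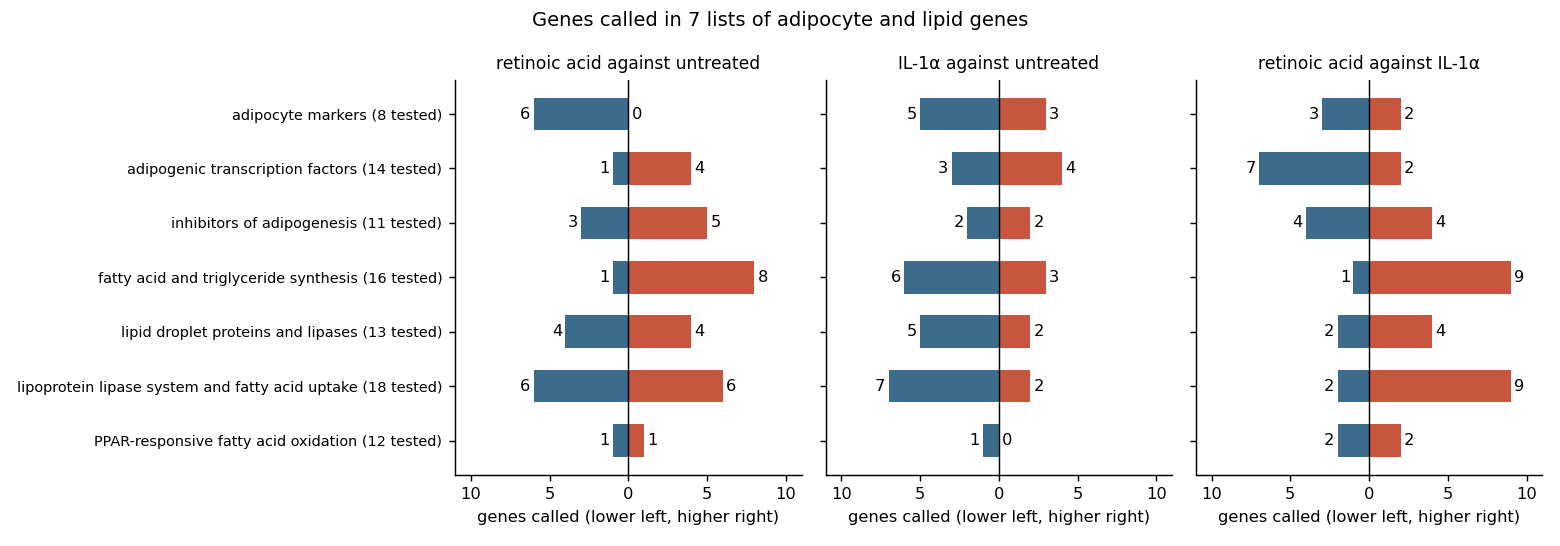
Number of genes called lower (bars to the left) and higher (bars to the right) in 7 lists of adipocyte and lipid genes (y axis, with the number tested) in the 3 treatment comparisons. With retinoic acid 6 of 8 tested adipocyte markers are called lower, and of 16 tested synthesis genes 8 are called higher, 1 lower and 7 neither.

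The markers of other cell types moved with the treatments as well. Their counts are to be read against the same shares of all genes, 18.6% higher and 18.1% lower with retinoic acid and 15.1% and 15.0% with IL-1α. The summed linear intensity of the adipocyte list was 2489 to 3017 on untreated, 1479 to 1797 on IL-1α and 771.6 to 963.3 on retinoic acid arrays. That sum is weighted to the brightest genes and does not rank the treatments for the list as a whole. It includes Sncg, which rose with IL-1α to a mean log2 intensity of 9.24. It also includes Rbp4, with means of 7.34 with IL-1α and 6.83 with retinoic acid and a batch 2 level 2.98 higher. The sum without these genes was not analysed. The list's median log2 difference was -1.18 with IL-1α and -1.06 with retinoic acid. Adipoq and Plin4 had their lowest means with IL-1α, and Cidea and Cfd with retinoic acid. Chondrocyte markers fell in 9 of 9 tested genes with retinoic acid and in 7 with IL-1α, with sums of 76650 to 93440 untreated, 45150 to 62530 with IL-1α and 15340 to 21730 with retinoic acid. Endothelial markers, which include Gpihbp1, fell in 8 of 12 genes with IL-1α while 4 did not pass. With retinoic acid 4 rose and 1 fell, and the 1 of 12 is below the 18.1% of all genes. The endothelial sum was 4273 to 5837 untreated, 2088 to 3295 with IL-1α and 6574 to 6714 with retinoic acid. Of 8 tested macrophage markers 5 rose with retinoic acid, and with IL-1α 5 fell and 2 rose, with median log2 differences of 0.68 and -1.09. Their sum was 6178 to 7607 untreated, 8769 to 9957 with retinoic acid and, with IL-1α, 8796 to 8867 in batch 1 and 5135 to 5579 in batch 2. Lpl is made by some macrophages, and the summed level of skeletal muscle markers was lower with both treatments. The part of the changes in endothelial, macrophage and muscle markers in the values of Lpl, Gpihbp1, Apoe, Plin4 and Pparg was not tested.

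**Figure D4:**
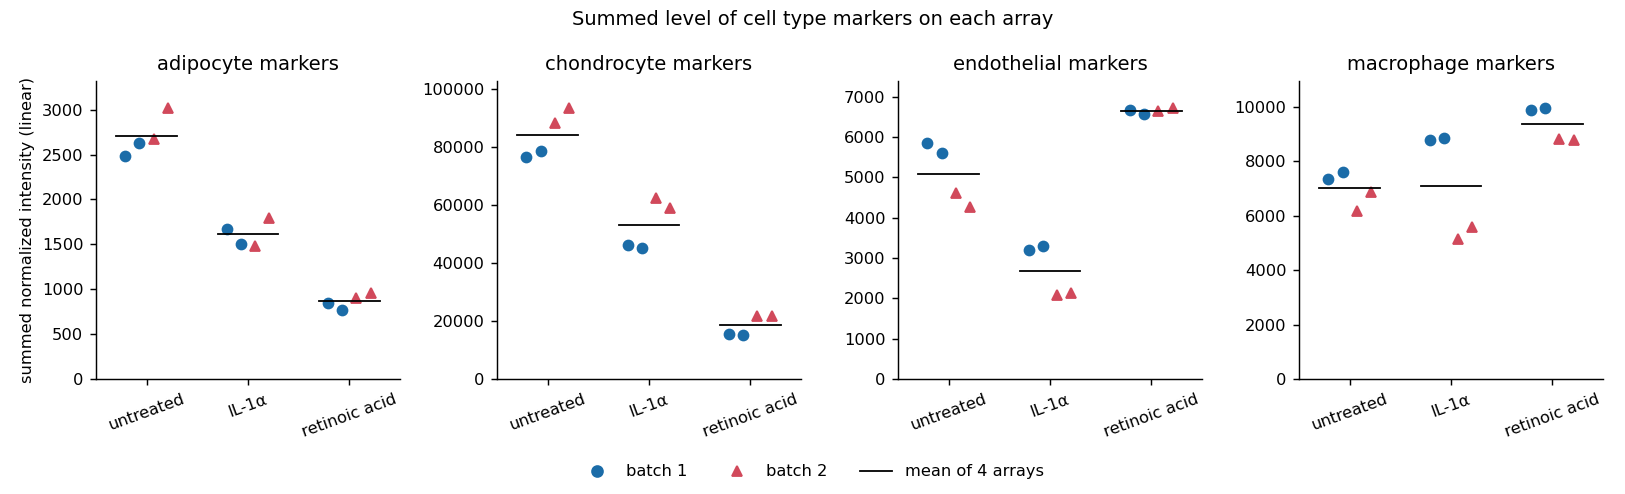
Summed normalized intensity on a linear scale (y axis) of 4 lists of cell type markers on each of the 12 arrays, by treatment (x axis), with batch 1 as circles, batch 2 as triangles and a line at the mean of 4 arrays. The chondrocyte sum is lowest with retinoic acid, as is the adipocyte sum, which is weighted to bright genes such as Sncg on the IL-1α arrays. The endothelial sum is lowest with IL-1α and highest with retinoic acid.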

How the data were processed

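RNA from cartilage explants was hybridised to Illumina bead arrays, 12 in all. The authors deposited probe intensity on a linear scale, neither background-corrected nor normalized. They also deposited a detection score per probe and array, under a heading that calls it a p-value. Bright probes have scores near 1, so the detection p was taken as 1 minus that score. The submitters' processing notes name limma, and how bead values were summarised is not given in the sources used here. All value columns belong to an array by their labels, and 0 were left without a sample.

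In R 4.3.3 with limma 3.58.1, neqc estimated background from the detection p, applied quantile normalization over the 12 arrays and added an offset of 16 before log2. A probe entered the tests if 4 or more arrays detected it at a p under 0.05, which left 18200 of 46632. The filter does not use treatment labels. The model had treatment and a 4-level factor of batch and replicate number, as in the study's methods. A 6-group fit tested whether effects differ between batches, and a fit of treatment and batch compared the batches. Benjamini-Hochberg adjustment ran over all kept probes, with 0.05 as the threshold. Exact permutation tests exchanged the 8 arrays of 2 treatments without regard to batch, unlike the model. A fold against a group not well above background on any array is a bound, from the higher of the probe's signal and the lowest detected signal of each array. The functions were tested on simulated data. The number of arrays limits the precision.

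Members and gene lists were chosen with earlier results of these data known. The text names the 10 members, and from each list the called genes with the 3 largest rises and 3 largest falls per comparison, by their brightest kept probe, or selected among these. Probes have no coordinates here, and older array symbols were matched to current ones where they differ (among genes named here Hilpda, Plin1, Plin2, Plin4 and Trarg1). Promoters are from RefSeq, GRCm38.p6. Alternatives were other backgrounds, scalings, filters, models and probe rules, array weights, leaving out each array and, chosen after seeing the data, each batch alone.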

Additional observations from a re-analysis of the deposited data

Results flagged for a closer look

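The lowest untreated array of Pparg, batch 2 replicate 2 at 6.44, lay far from the next at 6.65, with the other 3 within a narrow range. The lowest IL-1α array of Angptl4, batch 2 replicate 2 at 11.55, lay likewise below the next at 11.69. These are 2 of 21 groups of 4 arrays examined by Dixon's test, which flags about 1 in 20 by chance.

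Lpl was the only tested member whose treatment effect differed between batches by its brightest probe. The difference, batch 2 minus batch 1, was 0.88 for retinoic acid against untreated and 1.30 for retinoic acid against IL-1α. Retinoic acid arrays of batch 2 (10.08 and 9.97) lay close to their untreated pair, and those of batch 1 (9.31 and 9.23) lay far below theirs.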

How the results depend on the processing

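Members called numbered 6 for retinoic acid against untreated, 7 for IL-1α against untreated and 7 for retinoic acid against IL-1α. Without the replicate block the counts were 6, 7 and 7, so the block changed none of them. The labels give the numbers no shared animal or day, and the correlations of replicate differences between treatments within a batch ran from -0.108 to 0.391, so the pairing is by number alone. With treatment as the only term the counts were 3, 4 and 3. Leaving out each array gave 5 to 6, 6 to 7 and 6 to 7. Batch 1 alone gave 6, 6 and 5, and batch 2 alone 4, 6 and 6. For batch 2 against batch 1 the count of 4 became 2 when every kept probe had to pass, 2 without a treatment term and 7 with normalization within each batch, and 3 to 5 on leaving out arrays. There Angptl4 reversed to 0.26 and 0.50, Cebpa to 0.27 and 0.52 and Pparg to 0.61 and 0.81, under median scaling and normalization within each batch. Of effects that differ between batches, the count of 1 (Lpl) became 2 when any probe could pass (Cebpa), with no background correction, an offset of 50 or array weights (Scd1), and with no filter (Cidec), and 3 with median scaling (Adipoq and Scd1). It was 1 to 2 on leaving out arrays. Lpl was called in all of these settings in at least 1 comparison, but its difference for retinoic acid against untreated was lost in 8 of 12 cases of leaving out an array, with adjusted p up to 0.15. Over all members 617 of 691 alternative values kept direction and call, 55 lost the call and 7 gained it. Another 6 reversed, and 6 uncalled ones changed sign, all in the batch comparison. Of 1871 values of other named genes 1678 kept both and 193 lost the call. The causes were not tested. Probes near background have only a bound.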

Other observations

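After the mean of each batch was subtracted, the genes whose levels over the 12 arrays were most like Pparg were Col4a5 (Pearson r = 0.995), Slco2b1 (0.990) and Fhl2 (0.988). Fasn was nearest to 1600015H20Rik (0.995), Htra3 (0.985) and Slco2b1 (0.984). Adipoq was nearest to E430021N18Rik (0.956), Ihh (0.948) and S100a4 (0.946), and Lpl to Acta2 (0.981), Ccnd1 (0.972) and D17H6S56E-5 (0.966). Scd1 was nearest to Pdlim1 (0.977), 4930547N16Rik (0.976) and Ccnd1 (0.973). For Cebpa these were scl000205.1_10, Slc11a2 and 0610038D11Rik (0.976 each), and for Angptl4 Tcirg1, Luzp1 and Chmp7 (0.982, 0.982 and 0.977). The 12 arrays form 3 treatment groups, so these values mostly follow the group means. Of the remaining marker lists, skeletal muscle had 2 of 5 tested genes lower with retinoic acid and 3 with IL-1α (18.1% and 15.0% of all genes). The summed linear intensity of the muscle list was 1394 to 2763 on untreated, 442 to 565.6 on IL-1α and 295.6 to 495.1 on retinoic acid arrays. Its median log2 difference was -0.24 with retinoic acid and -0.64 with IL-1α. Osteoblast markers were lower in 5 of 7 with each treatment. The 1 of 7 higher with retinoic acid lies below the 18.6% of all genes. Erythroid markers were lower with retinoic acid than with IL-1α in 2 of 5, against 16.4%.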
